A study of Mus musculus with 12 samples.

Results

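The genes described here are 10 genes of the LIM-domain families Pdlim, Fhl and Csrp whose proteins associate with actin, Pdlim1, Pdlim2, Pdlim3, Pdlim4, Pdlim5, Pdlim7, Fhl1, Fhl2, Csrp1 and Csrp2, out of 21556 genes in the count table. They were chosen by name, with the response of Pdlim2 to TGF-β2 in these libraries already known. What else entered the choice is not recorded, so the values below describe the 10 genes and are not independent evidence about them. RNA was sequenced from primary fibroblasts of mouse abdominal skin, in 4 groups of 3 libraries. The cells came from WT mice (C57BL/6) or from Nox4 KO mice (B6.129-Nox4tm1Kkr/J), a constitutive targeted line on which no cell type restricts the deletion. They were left unstimulated (control) or received 10 ng/ml TGF-β2 for 24 h, and all cultures were starved of serum before. The ages of the mice that gave the fibroblasts are not given in the sources used here, nor is it stated whether the 3 libraries of a group came from separate animals, so the tests measure the spread between these libraries, which may be technical.

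LIM domains are zinc-binding modules through which a protein docks onto other proteins. In the Pdlim proteins a PDZ domain holds the protein on α-actinin, the cross-linker of actin stress fibres, while the LIM domains recruit partners such as kinases. The Fhl proteins are built of LIM domains alone and move between focal adhesions, stress fibres and the nucleus, and the Csrp proteins are small LIM proteins that bind α-actinin and zyxin. TGF-β turns fibroblasts into myofibroblasts, contractile cells rich in stress fibres, and Nox4 is an oxidase whose gene is induced by TGF-β in fibroblasts.

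Total counts were 35118344 to 43796260 per library. Nox4 itself had 1.31 to 2.42 RPKM (reads per kilobase of exon, scaled to the library's total) in WT controls and 0.636 to 1.399 in Nox4 KO controls. After TGF-β2 it had 8.56 to 16.3 RPKM in WT and 4.39 to 6.85 in Nox4 KO, and the difference between genotypes did not pass the test in either condition (edgeR adjusted p = 0.828 and 0.838). Gene-level counts do not show which exons the reads came from. All 9 fibroblast markers exceeded a mean of 1 RPKM in every group. Their sum was 8344 to 9632 RPKM in controls and 5707 to 7118 RPKM after TGF-β2, without overlap, and the part of this in the results below was not tested. The 6 keratinocyte markers summed to at most 0.920 RPKM in any library, and the 8 myeloid markers summed to 12.6 to 110 RPKM, with most of it from Lyz2. Endothelial, Schwann cell and melanocyte markers summed to at most 5.54 and 2.13 RPKM. Pericyte and smooth muscle markers summed to 94.5 to 138 RPKM in controls and 145 to 198 RPKM after TGF-β2, again without overlap. The part of this in the results below was not tested either. Of 11 skeletal muscle markers the sum rose from 45.1 to 112 RPKM in controls to 258 to 617 RPKM after TGF-β2, nearly all of it Acta1, the skeletal α-actin gene, while Myh4 was at 0 in every library and Myod1, Myog, Ckm and Pax7 had at most 3 counts. The contractile genes were already high in controls. Their summed level was 10901 to 13572 RPKM there and 11429 to 18689 RPKM after TGF-β2. One library stood apart, the WT TGF-β2 library of number 2. Its log2 levels lay 0.453 above the mean of the other 2 libraries of its group at the median of 2316 genes under 2 kb. At the median of 2838 genes over 5 kb they lay 0.343 below that mean. The WT response of each gene this library moves most is therefore also given without it.

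Among the 10 genes the order of levels per exon length was much the same in all groups. Csrp1 stood first, with 792 ± 120 RPKM in WT controls (SD, n = 3), 781 ± 166 in WT after TGF-β2, 855 ± 96.4 in Nox4 KO controls and 695 ± 33.4 in Nox4 KO after TGF-β2, and made up 57.2% to 60.2% of the summed RPKM of the 10 genes at the group means. Fhl1, Fhl2, Pdlim5 and Pdlim7 followed between 73.9 and 171 RPKM at the group means, and in WT controls neighbours among these overlapped. Pdlim2 stood sixth in the controls of both genotypes, above Pdlim1, Csrp2 and Pdlim4, with no overlap with the gene next below. After TGF-β2 it stood eighth in both, below Csrp2 and overlapping Pdlim4. Pdlim3, a gene of the muscle Z-disc, was last in every group.

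**Figure D1:**
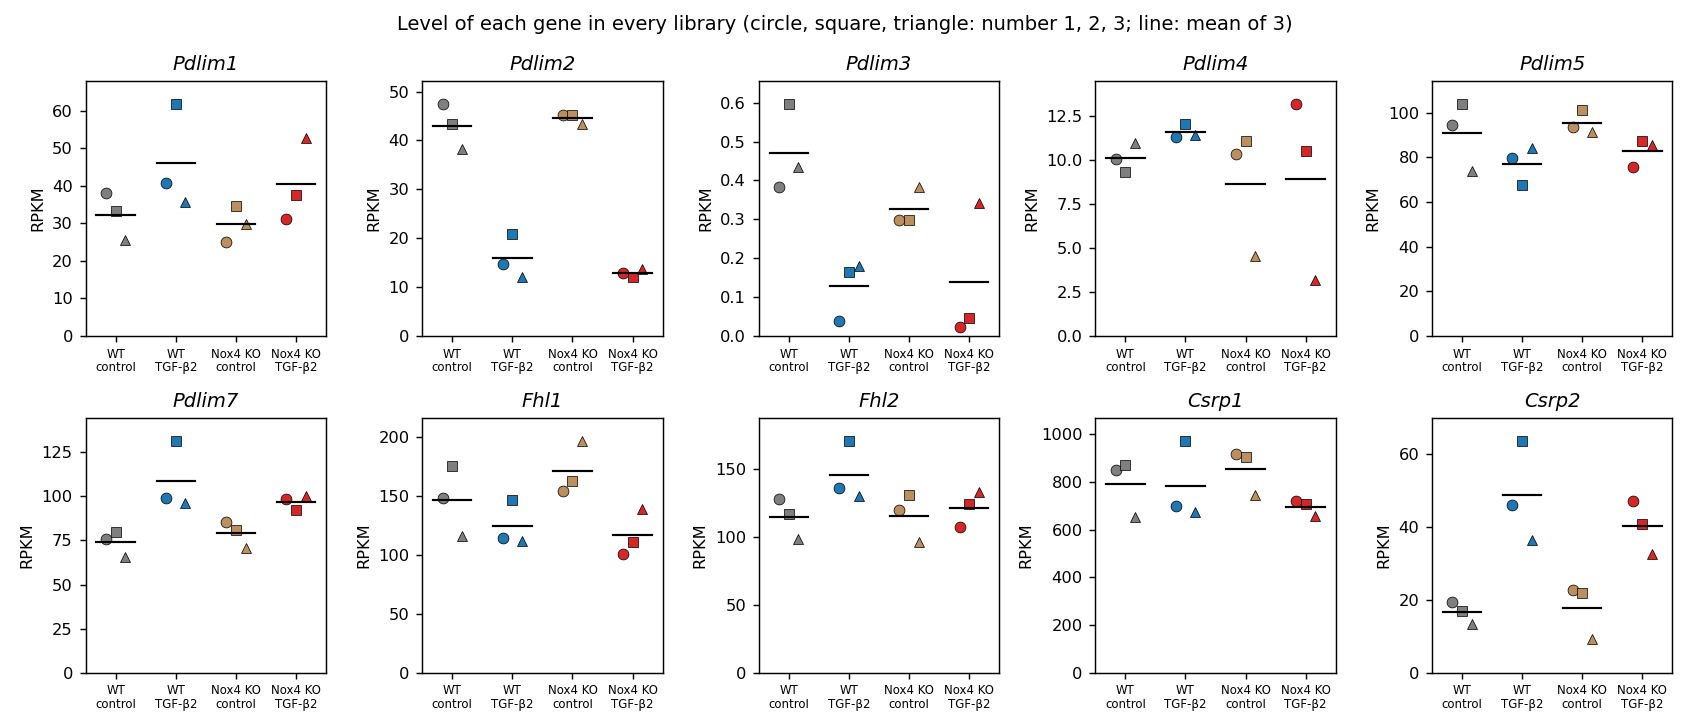
Level of each of the 10 genes in RPKM (vertical axis, from 0) in every library of the 4 groups, with a line at the mean of 3 libraries. Pdlim2 lies between 38.3 and 47.4 RPKM in the 6 controls and between 12.0 and 20.8 RPKM in the 6 stimulated libraries, and Csrp2 moves the other way.

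After TGF-β2, Pdlim2 was lower and Csrp2 and Pdlim7 were higher in fibroblasts of both genotypes, among genes chosen with earlier results known. The Pdlim7 call in both genotypes and the Csrp2 call in Nox4 KO were lost when some single libraries were left out (below). Of the 10 genes, 9 passed the filter of a mean of 1 RPKM in at least 1 group. Of these 9, 2 were called higher and 1, the Pdlim2 that was chosen for its response, lower in WT (edgeR adjusted p under 0.05). There 10.4% of the 10743 genes tested were called higher and 12.2% lower. In Nox4 KO the same 2 genes were called higher and the same gene lower, beside 15.1% and 14.9% of the 10809 genes tested there. With a fold change of at least 2 also asked for, Csrp2 and Pdlim2 remained in each genotype. Over all genes tested, 2.62% were higher and 5.09% lower by this rule in WT, and 2.22% and 4.58% in Nox4 KO. Since the response of Pdlim2 was known when the genes were chosen, nothing is read from these counts. The median log2 fold change of the 9 genes was 0.24 in WT and 0.13 in Nox4 KO, beside -0.0027 and -0.014 over all genes tested. In bulk RNA, fewer cells of a kind and less RNA per cell cannot be told apart.

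Pdlim2 (ENSMUSG00000022090, minus strand, chr14:70164218-70177681 in GRCm38) encodes a PDZ-LIM adaptor found on actin and in the nucleus, where it promotes the degradation of the NF-κB subunit p65 and of STAT4. In WT controls it had 47.4, 43.4 and 38.3 RPKM, and after TGF-β2 14.7, 20.8 and 12.0 RPKM. In Nox4 KO controls it had 45.2, 45.3 and 43.4 RPKM, and after TGF-β2 12.9, 12.0 and 13.6 RPKM. Every stimulated library lay below every control library, and the 3 libraries of each Nox4 KO group lay close together. The level was 2.65-fold lower in WT (log2 fold change -1.41, SE 0.21) and 3.28-fold lower in Nox4 KO (log2 fold change -1.72, SE 0.066). Since the gene was chosen for this response, no p is given for it. Ordered from the lowest log2 fold change, it stood at place 323 of 10743 genes in WT and at place 170 of 10809 in Nox4 KO. The highest stimulated WT value came from the library that stood apart, and without it the log2 fold change in WT was -1.63.

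Pdlim2 held a smaller share of its own family after TGF-β2. This share is built on the values that show the response Pdlim2 was chosen for, so it is no separate evidence. It held 17.2% ± 1.02 (SD, n = 3) of the summed RPKM of the 6 Pdlim genes in WT controls and 6.03% ± 1.03 after TGF-β2, and 17.3% ± 0.754 and 5.29% ± 0.287 in Nox4 KO. The lowest control share was 16.0% and the highest stimulated share 7.07%, so the groups lay well apart in both genotypes. The share compares genes within a library and does not depend on its total count.

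Pdlim7, or Enigma, is a PDZ-LIM protein of stress fibres that also binds tyrosine kinase receptors. It had 75.8, 80.0 and 65.8 RPKM in WT controls and 99.1, 132 and 96.4 RPKM after TGF-β2. In Nox4 KO it had 85.6, 80.9 and 70.7 RPKM in controls and 98.3, 92.2 and 100 RPKM after TGF-β2. All stimulated libraries lay above all controls, but by less than for the genes above. The log2 fold change was 0.60 (SE 0.15, adjusted p = 0.0314) in WT and 0.38 (SE 0.095, adjusted p = 0.0302) in Nox4 KO by edgeR's quasi-likelihood test. Without the WT library that stood apart the WT value was 0.46 (adjusted p = 0.0338). The call rested on few libraries. It was lost without any one of WT control 1, 2 or 3 or WT TGF-β2 1 (adjusted p = 0.0546 to 0.0872), without Nox4 KO control 2 or Nox4 KO TGF-β2 1, 2 or 3 (0.0581 to 0.0869), and, in Nox4 KO, with scaling by library size alone (0.0501).

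The other Pdlim genes did not pass the test in either genotype. Pdlim1 (also CLP36), which carries α-actinin partners to stress fibres, had 25.6 to 38.0 RPKM in WT controls and 35.6 to 61.7 after TGF-β2, and 25.02 to 34.6 and 31.1 to 52.6 RPKM in Nox4 KO. Its log2 fold change was 0.54 (SE 0.24, adjusted p = 0.150) in WT and 0.52 (SE 0.21, adjusted p = 0.110) in Nox4 KO, and the groups overlapped. Without the WT library that stood apart it was 0.29 in WT, and without Nox4 KO TGF-β2 3 it was 0.30 in Nox4 KO. The Nox4 KO response passed with the number as a block (log2 fold change 0.51, adjusted p = 0.0298) and in DESeq2 (0.53, adjusted p = 0.0496). Of its 2547 stretches of 50 bases, the read length, 499 (19.6%) also occur in transcripts of other genes, mostly Gm5864, and the authors discarded reads with more than 1 location, so its level may be understated. Pdlim5 (also ENH), a scaffold for protein kinase C, had 73.9 to 104 RPKM in WT controls and 67.5 to 84.3 after TGF-β2, with a log2 fold change of -0.20 (SE 0.17, adjusted p = 0.440), or -0.096 without the library that stood apart. In Nox4 KO all 3 stimulated libraries of Pdlim5 lay below the controls, at 75.8 to 87.5 against 91.3 to 101 RPKM, but the log2 fold change of -0.12 (SE 0.087) had an adjusted p of 0.349.

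Pdlim4 (also RIL), a small PDZ-LIM protein, spread widely between the Nox4 KO libraries. In WT it had 10.0, 9.31 and 11.0 RPKM in controls and 11.3, 12.05 and 11.4 RPKM under TGF-β2, which is a log2 fold change of 0.24 (SE 0.10, adjusted p = 0.139). In Nox4 KO it had 10.3, 11.1 and 4.53 RPKM in controls and 13.2, 10.49 and 3.18 RPKM after TGF-β2. Both libraries of number 3 were low, and the numbers pair the Nox4 KO libraries, since every control library deviated from its group together with the stimulated library of its number (Pearson's r = 0.763, 0.688 and 0.741 over 10890 genes). The log2 fold change in Nox4 KO was 0.13 with a 95% confidence interval from -1.26 to 1.52, which is too wide to show a change of the size seen in WT. Without both libraries of number 3 it was 0.23.

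Pdlim3 (also ALP) was near the limit of detection. It had 26 to 44 reads per library in WT controls (0.471 ± 0.111 RPKM, SD, n = 3) and 3 to 13 after TGF-β2 (0.128 ± 0.0780 RPKM), and 22 to 27 reads in Nox4 KO controls and 2, 4 and 28 after TGF-β2. In the largest library 3 counts of Pdlim3 are worth 0.0354 RPKM. All stimulated WT libraries lay below the controls, whereas in Nox4 KO the stimulated library of number 3, at 0.343 RPKM, lay within the range of the Nox4 KO controls (0.297 to 0.384 RPKM). Its mean was under 1 RPKM in every group, so it was not tested by the rule used here. With no filter on low counts its log2 fold change was -1.81 (SE 0.51, adjusted p = 0.0446) in WT and -1.13 (SE 0.83, adjusted p = 0.395) in Nox4 KO.

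Fhl1 and Fhl2 shifted in their balance. Fhl1, best known from muscle, had 148, 176 and 116 RPKM in WT controls and 114, 146 and 112 after TGF-β2. In Nox4 KO it had 154, 163 and 197 RPKM in controls and 100, 111 and 139 after TGF-β2. The WT groups overlapped (log2 fold change -0.21, SE 0.19, adjusted p = 0.458, and -0.32 without the library that stood apart), and the Nox4 KO groups did not (log2 fold change -0.47, SE 0.14, adjusted p = 0.0517). Leaving out single libraries gave -0.35 to -0.031 in WT and -0.60 to -0.37 in Nox4 KO. With the number as a block, which the pairing of the Nox4 KO libraries allows, the log2 fold change in Nox4 KO was -0.47 with an adjusted p of 0.0015.

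Fhl2, a cofactor of transcription that shuttles between adhesions and the nucleus, had 128, 117 and 98.8 RPKM in WT controls and 136, 171 and 130 after TGF-β2. In Nox4 KO it had 120, 131 and 96.7 RPKM in controls and 107, 125 and 133 after TGF-β2. The WT groups did not overlap and the Nox4 KO groups did. The log2 fold change was 0.38 (SE 0.15, adjusted p = 0.116) in WT and 0.15 (SE 0.15, adjusted p = 0.455) in Nox4 KO, so neither passed, and the WT value was 0.27 without the library that stood apart. In Nox4 KO, leaving out single libraries gave 0.027 to 0.26. As a share of Fhl1 plus Fhl2 by RPKM, Fhl2 held 46.3%, 40.0% and 46.0% in WT controls and 54.3%, 53.9% and 53.8% after TGF-β2. In Nox4 KO the shares were 43.7%, 44.7% and 32.9% in controls and 51.6%, 53.0% and 49.0% after TGF-β2. In both genotypes every stimulated library had a larger Fhl2 share than every control.

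The promoters of Fhl1 and Fhl2 are shown because they hold a CArG box, the motif bound by serum response factor. Whether the box bears on the levels of these genes was not tested. RefSeq promoter windows of 300 bases around a start site (GRCm38.p6) were found for 8 of the 10 genes, 12 windows in all. Pdlim2 and Csrp2 had no entry. The CArG box (searched by its consensus, which reads the same on both strands) was found in 3 of the 12 windows, beside 1.63% of 32851 windows of all genes. Of these 3 windows, 1 belongs to Fhl1 and 2 to Fhl2. GGAATG, the core of the TEAD motif, was found on either strand in 1 of the 12 windows (Pdlim3) and in 14.7% of all windows, and CAGACA, a SMAD-type motif, in 2 (Pdlim4 and the second Fhl1 window) and in 21% of all. No window of the 8 genes held 2 of these motifs, so none overlapped. These matches describe the letters only. The 3 windows with a CArG box are printed up to the start site, 5′ to 3′ on the strand of the gene, with the box in capitals. They lie at chrX:56779433-56779682 on the plus strand (Fhl1, box from position -102 to the start), and at chr1:43163962-43164211 (Fhl2, position -31) and chr1:43196762-43197011 (Fhl2, position -96) on the minus strand.
Fhl1: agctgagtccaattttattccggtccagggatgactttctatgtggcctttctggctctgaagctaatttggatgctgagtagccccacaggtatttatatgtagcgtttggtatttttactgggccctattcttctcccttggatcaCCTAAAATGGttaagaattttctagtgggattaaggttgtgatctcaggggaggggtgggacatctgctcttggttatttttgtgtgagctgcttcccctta
Fhl2, inner start: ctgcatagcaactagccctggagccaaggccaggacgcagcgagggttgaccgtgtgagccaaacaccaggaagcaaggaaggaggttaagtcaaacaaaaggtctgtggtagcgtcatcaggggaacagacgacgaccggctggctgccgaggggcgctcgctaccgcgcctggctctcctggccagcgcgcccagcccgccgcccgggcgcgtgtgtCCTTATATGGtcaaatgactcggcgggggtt
Fhl2, outer start: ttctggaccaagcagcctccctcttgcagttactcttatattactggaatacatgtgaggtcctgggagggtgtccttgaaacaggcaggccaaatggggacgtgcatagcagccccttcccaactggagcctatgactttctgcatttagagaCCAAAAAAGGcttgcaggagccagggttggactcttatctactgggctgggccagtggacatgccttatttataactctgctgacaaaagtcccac

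Csrp2 was the member with the largest rise, and its close relative Csrp1 did not pass the test. Csrp2 encodes a LIM protein of smooth muscle and of activated stellate cells of the liver. In WT controls it had 19.5, 16.9 and 13.5 RPKM, and after TGF-β2 46.0, 63.7 and 36.4 RPKM. In Nox4 KO controls it had 22.6, 21.8 and 9.20 RPKM, and after TGF-β2 47.2, 40.8 and 32.6 RPKM. No stimulated library overlapped a control. The log2 fold change was 1.58 (SE 0.24, adjusted p = 0.0055) in WT and 1.25 (SE 0.36, adjusted p = 0.0448) in Nox4 KO by edgeR's quasi-likelihood test. Without the WT TGF-β2 library that stood apart it was 1.36 in WT (adjusted p = 0.0076). In Nox4 KO the call was lost without control 1 or 2 or TGF-β2 1 or 2 (adjusted p = 0.0724 to 0.126). There the control of number 3 was the lowest, and the log2 fold change was 1.07 without both libraries of number 3 (adjusted p = 0.0037) and 1.33 with the number as a block (adjusted p = 0.0031).

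Csrp1, a LIM protein of smooth muscle and fibroblasts, had 850, 872 and 654 RPKM in WT controls and 699, 972 and 672 under TGF-β2, which is a log2 fold change of 0.01 (SE 0.19, adjusted p = 0.971), and of -0.16 without the library that stood apart. In Nox4 KO it had 915, 906 and 744 RPKM in controls and 720, 707 and 657 after TGF-β2, and all 3 stimulated libraries lay below the controls. The log2 fold change there was -0.22 (SE 0.11, adjusted p = 0.188), and -0.21 with an adjusted p of 0.0388 with the number as a block. Csrp2 held 2.25%, 1.89% and 2.02% of the summed RPKM of the pair in WT controls and 6.18%, 6.15% and 5.14% after TGF-β2. In Nox4 KO it held 2.41%, 2.35% and 1.22% in controls and 6.15%, 5.46% and 4.73% after TGF-β2. Thus Csrp1 remained the main form in every library while the share of Csrp2 was larger in every stimulated library than in any control.

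The 2 Csrp transcripts can be told apart by their reads, which is shown by the start of their coding sequences. Their coding sequences both have 579 bases, of which 427 (73.7%) are identical position by position, and the longest identical run is 15 bases, well under the read length of 50. None of the 50-base stretches of Csrp1 (1904) or Csrp2 (2075) was found in a transcript of another gene. The first 150 coding bases from GENCODE M21 are printed from the start codon, with the 41 differing positions in capitals. They lie on 2 exons each, at chr1:135739401-135739512 and chr1:135745259-135745296 for Csrp1 and at chr10:110931956-110932067 and chr10:110935148-110935185 for Csrp2, on the plus strand of GRCm38.
Csrp1: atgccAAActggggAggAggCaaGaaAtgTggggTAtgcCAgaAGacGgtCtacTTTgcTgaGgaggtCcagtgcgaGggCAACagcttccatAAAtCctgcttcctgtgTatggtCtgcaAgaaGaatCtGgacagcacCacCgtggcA
Csrp2: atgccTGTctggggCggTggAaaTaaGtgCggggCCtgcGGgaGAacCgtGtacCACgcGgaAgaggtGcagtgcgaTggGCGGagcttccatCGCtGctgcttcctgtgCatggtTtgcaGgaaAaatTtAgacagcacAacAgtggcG

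**Figure D2:**
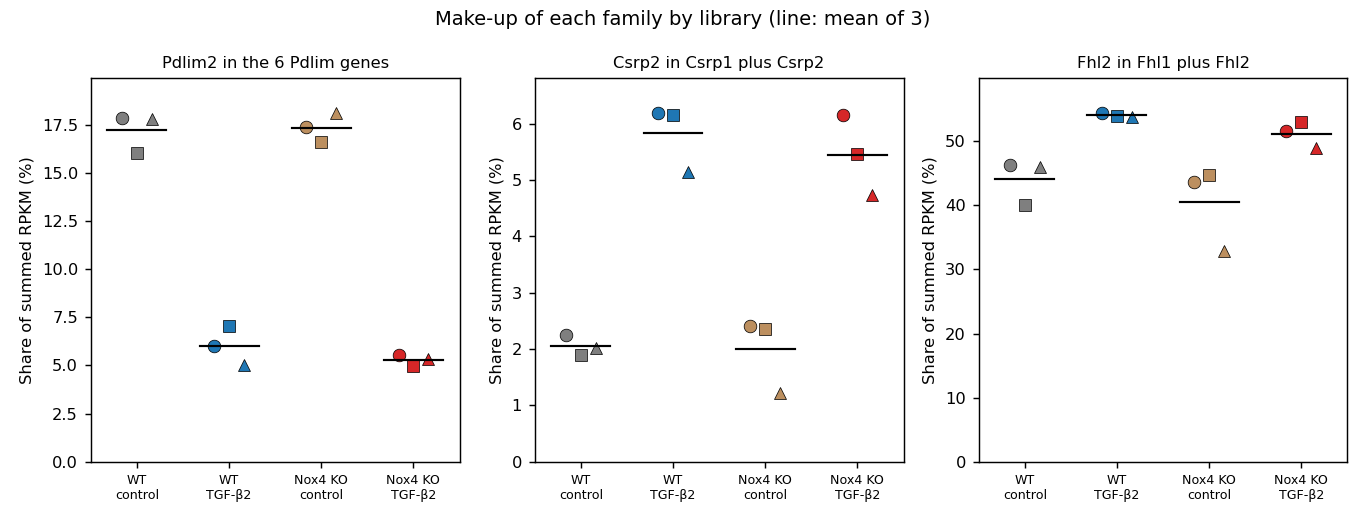
Share of Pdlim2 in the 6 Pdlim genes, of Csrp2 in Csrp1 plus Csrp2 and of Fhl2 in Fhl1 plus Fhl2, in percent of summed RPKM (vertical axes, from 0), in every library, with a line at the mean of 3. In each panel the stimulated libraries lie on one side of the controls in both genotypes, down to 5.02% and 4.99% at the lowest for Pdlim2.

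Counted by overlap alone, 4 of the 9 genes lay higher after TGF-β2 in all 3 WT libraries than in the controls (Pdlim4, Pdlim7, Fhl2 and Csrp2) and 1 lower (Pdlim2), where 20.3% and 24.9% of all genes did so. In Nox4 KO 2 lay higher (Pdlim7 and Csrp2) and 4 lower (Pdlim2, Pdlim5, Fhl1 and Csrp1), where 17.0% and 31.5% of all genes did so. Since the 10 genes were chosen with these contrasts known, nothing is read from these counts.

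**Figure D3:**
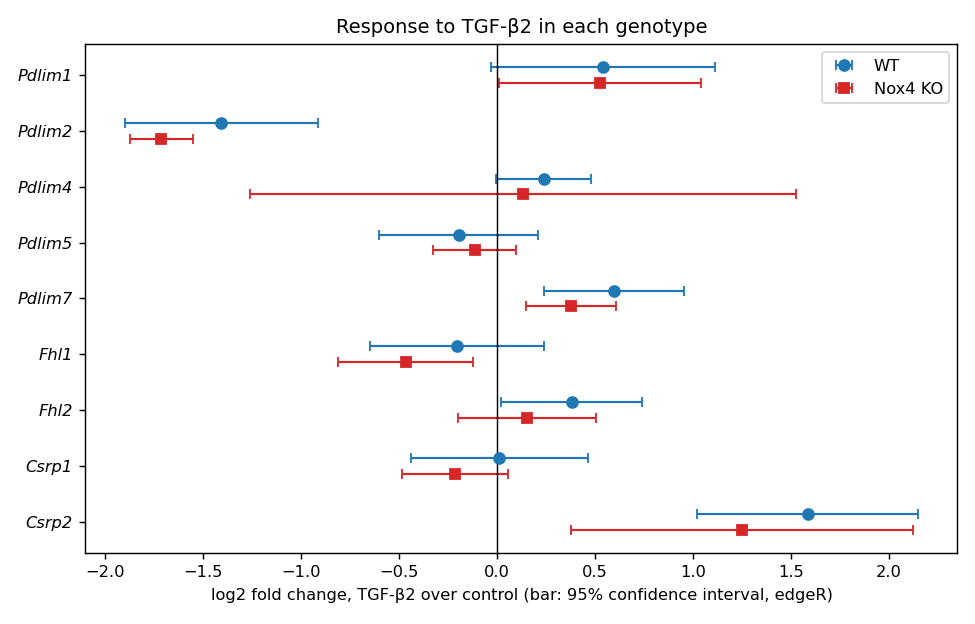
Log2 fold change of TGF-β2 over control (horizontal axis) of the 9 genes tested, in WT (circles) and Nox4 KO (squares), with the 95% confidence interval of edgeR's fit as bars. The intervals of both genotypes overlap for each of the 9 genes, and that of Pdlim4 in Nox4 KO runs from -1.26 to 1.52.

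None of the 9 genes differed between the genotypes by the tests run. In controls, Nox4 KO against WT gave log2 fold changes from -0.26 (Pdlim4) to 0.18 (Fhl1) with adjusted p of at least 0.868 in edgeR, and 0% of 10767 genes were called. At an unadjusted p under 0.05 there were 597 genes, none of them among the 9, and DESeq2 called 9 genes higher and 19 lower. After TGF-β2 the log2 fold changes lay between -0.35 (Pdlim4) and 0.12 (Pdlim5) with adjusted p of at least 0.838, and 0% of 10439 genes were called, with 337 at an unadjusted p under 0.05 and 8 higher and 8 lower in DESeq2. Every one of the 9 genes had overlapping groups in both comparisons, where 13.6% and 10.1% of all genes did not overlap in controls and after TGF-β2. A p that misses the threshold does not show equal levels. The 95% confidence intervals for Pdlim2 ran from -0.23 to 0.26 in controls and from -0.71 to 0.15 after TGF-β2 on the log2 scale.

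The response to TGF-β2 was also compared between the genotypes directly, by the interaction term over all 12 libraries. The difference in log2 fold change, Nox4 KO minus WT, was -0.29 for Pdlim2 (95% confidence interval -0.78 to 0.20), -0.32 for Csrp2 (-1.31 to 0.68) and -0.20 for Pdlim7 (-0.59 to 0.19). It was below 0 for 7 of the 9 genes and above 0 for Pdlim1 and Pdlim5, the largest of these being 0.093. Leaving out single libraries gave -0.45 to -0.086 for Pdlim2, -0.66 to -0.11 for Csrp2 and -0.31 to -0.080 for Pdlim7. No gene passed, with adjusted p of at least 0.854 for the 9 genes, and 0% of 10890 genes were called by edgeR. At an unadjusted p under 0.05 there were 292 genes, none of the 9, and DESeq2 called 0 genes higher and 6 lower. The intervals of the 9 genes ran from -1.46 at the lowest to 1.27 at the highest, both for Pdlim4.

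The libraries of a group moved together across several of the genes. In WT controls, number 3 was the lowest for 8 of the 9 genes tested, Pdlim4 being the exception. In the WT TGF-β2 library of number 2, 8 of the 9 were the highest of their group, and Pdlim5, the longest of the genes with 6904 bases of merged exons, was the lowest, beside the shift by gene length given above for that library. In Nox4 KO, number 3 had the lowest Pdlim4 and Csrp2 in both conditions and the highest Fhl1. The part of gene length or of cell make-up in these shifts was not tested.

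**Figure D4:**
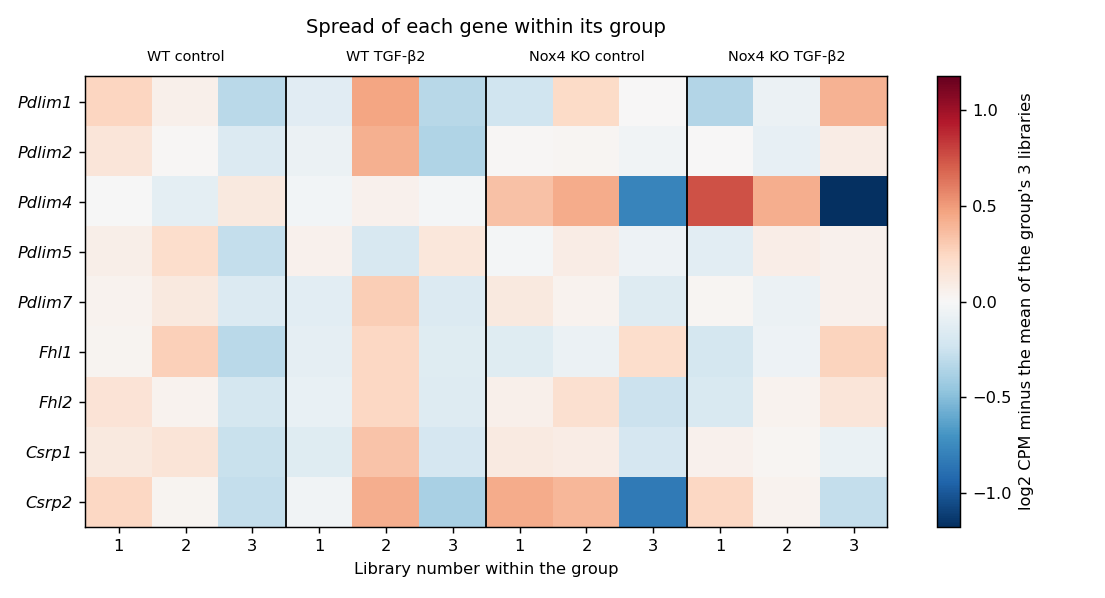
Deviation of each of the 9 genes tested from the mean of its group in log2 CPM (colour), for the 3 libraries of each of the 4 groups (columns). Pdlim4 in Nox4 KO number 3 after TGF-β2 is the darkest cell, at -1.18, followed by Csrp2 (-0.83) and Pdlim4 (-0.78) in the Nox4 KO control of number 3, and most genes are above the mean in WT TGF-β2 number 2.

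The genes whose profile over the 12 libraries was most like that of Pdlim2 were Pnp2, Car11, Cdc42ep2, Fdft1 and Tmem53. Likeness was the root mean square difference of log2 levels centred on each gene's mean, which was 0.19 for Pnp2 and Car11, 0.21 for Cdc42ep2, 0.22 for Fdft1 and 0.22 for Tmem53, beside a median of 0.83 over 10889 genes and a spread of 0.79 for Pdlim2 itself. Since the profile of Pdlim2 holds its response to TGF-β2, genes picked this way have similar fold changes by choice, here between -1.68 and -1.17 on the log2 scale in the 2 genotypes. Pnp2 has a near-identical paralog, Pnp, so its counts are uncertain. Fdft1 encodes squalene synthase of cholesterol synthesis and Cdc42ep2 an effector of the actin regulator Cdc42.

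Other LIM and actin genes were taken from lists written down with the earlier results of these data known. Of the 5 other genes of the same families, 2 were tested. Fhl3, another LIM-only gene, rose in WT (log2 fold change 0.63, SE 0.16, adjusted p = 0.0319), from 37.3 to 48.4 RPKM in controls to 59.0 to 79.4 after TGF-β2, and had 0.37 (adjusted p = 0.0670) in Nox4 KO. Of 13 genes of the zyxin, paxillin, PINCH, migfilin and testin families, 12 were tested, of which WT had 1 called higher and 0 lower, and Nox4 KO had 3 higher and 2 lower. Over all genes tested, 10.4% were called higher and 12.2% lower in WT, and 15.1% and 14.9% in Nox4 KO. Nothing is read from the counts of this list or of those below. The genes named are those of each list with the largest change among those called. Ajuba, a zyxin relative, rose in both genotypes (log2 fold change 1.03 and 0.79, adjusted p = 0.0050 and 0.0027), from 19.7 to 39.3 RPKM in WT and from 21.9 to 35.7 RPKM in Nox4 KO at the means. Fblim1 (migfilin), an adaptor of cell adhesions, had 0.43 in WT (adjusted p = 0.108) and 0.47 in Nox4 KO (adjusted p = 0.0199), and Wtip, a relative of Ajuba, 0.15 (adjusted p = 0.591) and -0.34 (adjusted p = 0.0462).

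Of 17 other actin-associated LIM genes, 14 were tested, with 1 higher and 4 lower calls for WT and 5 and 4 for Nox4 KO. The shares of all genes called are those given above. Among those tested, the genes that fell most were of low level. Limch1, an activator of non-muscle myosin, fell from 1.87 to 0.212 RPKM in WT and from 2.43 to 0.321 RPKM in Nox4 KO at the means (log2 fold change -3.10 and -2.83, adjusted p = 0.0034 and 0.0216). Limch1 passed the filter of a mean of 1 RPKM only through the controls, and for such genes the filter itself favours a fall. Ablim1 and Ablim3, actin-binding LIM genes, fell as well, with log2 fold changes of -1.86 and -1.80 in WT (adjusted p = 0.0036 and 0.0011) and of -1.497 and -1.519 in Nox4 KO (adjusted p = 0.0281 and 0.0052). Ablim3, too, passed the filter only through the controls. Its means were 1.22 RPKM in WT controls and 0.338 after TGF-β2, and 1.52 and 0.497 RPKM in Nox4 KO. The median over the tested genes of the list was -0.043 in WT and -0.042 in Nox4 KO. Nebl, of the same list, went the other way. It had means of 0.0410 and 0.435 RPKM in WT without and with TGF-β2, and of 0.0599 and 0.436 RPKM in Nox4 KO. These are under the filter, so Nebl was not tested.

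Of 14 partners of these proteins and regulators of actin genes, 13 were tested, with 2 higher calls and 1 lower for WT, against 4 and 0 for Nox4 KO. Here, too, the shares of all genes called are those given above. Srf, the serum response factor, rose from 28.7 ± 4.798 to 53.7 ± 0.513 RPKM in WT (SD, n = 3) and from 31.2 ± 1.01 to 48.4 ± 1.42 RPKM in Nox4 KO, with log2 fold changes of 0.94 (SE 0.14, adjusted p = 0.0057) and 0.72 (SE 0.062, adjusted p = 0.0024). Synpo2 (myopodin), an α-actinin partner, fell by 0.68 on the log2 scale in WT (adjusted p = 0.0213) and had -0.30 in Nox4 KO (adjusted p = 0.528). Actn1 and Actn4, 2 genes of α-actinin, to which the Pdlim and Csrp proteins bind, gave small values. Actn4 had log2 fold changes of -0.09 in WT and -0.03 in Nox4 KO (adjusted p = 0.679 and 0.829), and Actn1 had 0.15 in WT (adjusted p = 0.505) and rose by 0.27 in Nox4 KO (adjusted p = 0.0470). Actn3, an α-actinin gene among the skeletal muscle markers, fell from 1.01 to 0.527 RPKM in WT and from 1.01 to 0.544 RPKM in Nox4 KO at the means. Its log2 fold changes were -0.91 and -0.80 (edgeR adjusted p = 0.0201 and 0.0267), and it passed the filter only through the controls. The α-actinin genes were named after their values were seen, as the partners of the genes described here.

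**Figure D5:**
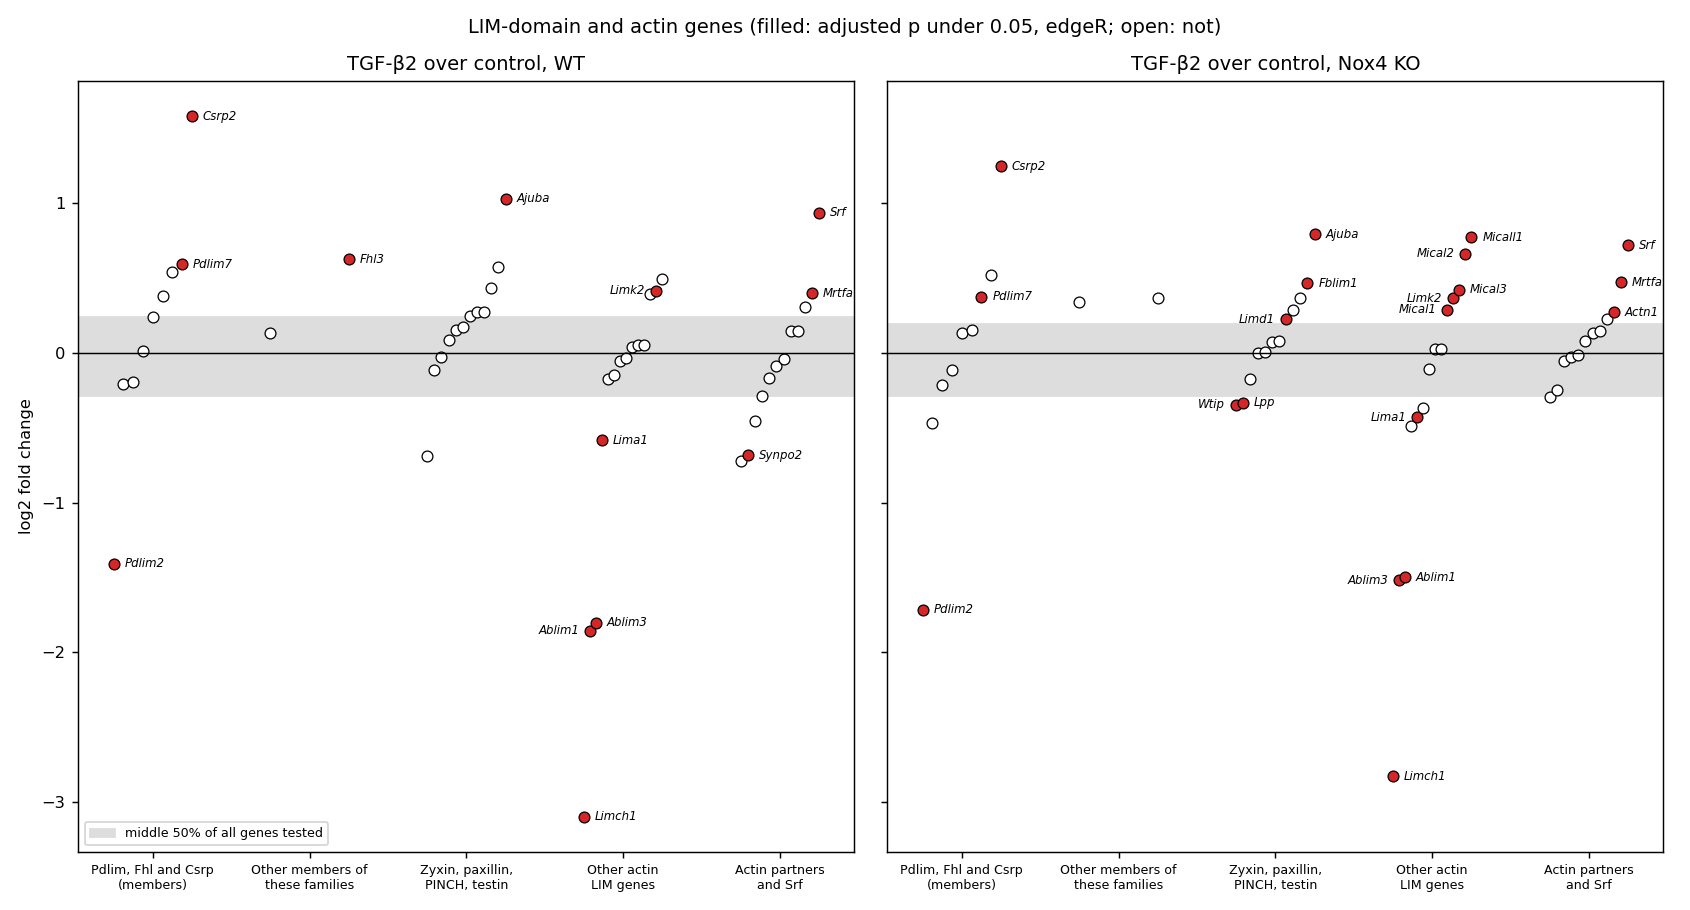
Log2 fold change of TGF-β2 over control (vertical axis) of the tested genes of the 5 lists that are reported here, in WT (left) and Nox4 KO (right), with filled points at an adjusted p under 0.05 and the middle 50% of all genes tested shaded. Pdlim2 at -1.41 and -1.72 and Csrp2 at 1.58 and 1.25 are the lowest and the highest of the 9 tested genes described here.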

How the data were processed

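RNA from 12 cultures was sequenced as single reads of 50 bases. Per the study's methods and the submitters' processing notes, the authors called bases with CASAVA 1.8.2, used STAR 2.4 for alignment to GRCm38, kept only reads that map to a unique place, and summarised them with featureCounts 1.4.6 over the exons of protein-coding isoforms, merged per gene. Use of the strand is not given in the sources used here. The deposited values are raw counts per gene for 21556 Ensembl IDs, all of which matched GENCODE M21. RPKM was computed from these counts, with lengths of merged exons. Each pair of groups was tested on its own 6 libraries with edgeR 4.0.16 (quasi-likelihood test, TMM factors, R 4.3.3), after a filter of a mean of 1 RPKM in at least 1 of the groups compared, and p-values were adjusted by Benjamini-Hochberg over all genes tested. A call is an adjusted p under 0.05. The interaction was fitted over all 12 libraries. SE is the log2 fold change over the square root of F.

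The 10 genes and all gene lists were chosen with earlier results of these data known. The genes named from the other lists are the 3 of each with the largest absolute log2 fold change among those called in WT or Nox4 KO after TGF-β2, of which 1 is not reported here, and the 5 genes nearest to Pdlim2 were taken by profile. Same-numbered libraries of Nox4 KO deviated together (r = 0.763, 0.688 and 0.741), so the number was also used as a block there. Alternatives were DESeq2 1.42.0, other scaling factors and filters, the block, a fit of all libraries, other lengths and leaving out each library. Scripts were tested on simulated data. Totals of 35118344 to 43796260 counts limit only low genes such as Pdlim3.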

Additional observations from a re-analysis of the deposited data

How the results depend on the processing

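Pdlim2, which was chosen for its response, had log2 fold changes of -1.63 to -1.24 in WT and -1.75 to -1.67 in Nox4 KO when single libraries were left out. Without a filter on low counts, or with edgeR's filterByExpr, the genes called lower in WT were 2 (Pdlim3 was added). Over all genes, 1522 of 16828 and 1584 of 12866 were then called lower, against 1308 of 10743. With a fold of at least 2 the genes called higher were 1 in each genotype. In Nox4 KO, DESeq2 called 3 higher and 2 lower (Pdlim1 and Fhl1 were added), library size alone gave 1 higher and 2 lower, the replicate block gave 3 lower, and leaving out both libraries of number 3, chosen after seeing the data, gave 3 lower (Csrp1 and Fhl1 were added in both). Of all 10809 genes, DESeq2 called 2059 higher and 2011 lower, library size alone 1032 and 2122, and the block 2729 and 3113. The main fit called 1637 and 1606. Without both libraries of number 3 the calls were 2146 and 2098 of 10790 genes. Leaving out single libraries gave 1 to 2 higher and 1 lower in WT, and 0 to 2 higher and 1 to 2 lower in Nox4 KO. Over all genes it gave 520 to 1643 higher and 712 to 1756 lower in WT. In Nox4 KO it gave 572 to 1713 higher and 562 to 1798 lower. With lengths over all transcripts (3714 against 3289 bases for Fhl1) the Fhl2 share after TGF-β2 was 57.0% in WT and 54.2% in Nox4 KO. The shares of the controls are larger with these lengths as well. The cause of the differences in calls was not tested.

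The replicate block also called Pdlim1 in Nox4 KO (log2 fold change 0.51, adjusted p = 0.0298), beside Fhl1 (-0.47) and Csrp1 (-0.21), and over all genes it called 2729 higher and 3113 lower, against 1637 and 1606 without it. It changed no other call of the 9 genes. In WT the same-numbered libraries had r = 0.0619, 0.415 and 0.525, which does not establish a pairing by the limit of 0.1 for every pair, and the block is given there as an alternative only. Not every WT control correlated best with its own number, and the block called 1319 genes higher and 1761 lower, against 1117 and 1308. With library size alone the median of all genes in Nox4 KO moved to -0.10, and 32.7% of the calls were higher, against 50.5% (39.2% against 46.1% in WT).

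Values near 0 changed sign. With library size alone Csrp1 had -0.022 in WT after TGF-β2 and Fhl2 0.017 between genotypes in controls. With both libraries of number 3 left out Fhl2 had -0.033 in Nox4 KO. With the replicate block Csrp2 had -0.020 between genotypes in controls. The interaction of Pdlim1 was -0.010 with DESeq2, -0.011 with relative log expression factors, -0.0093 with filterByExpr, -0.0096 with the replicate block, -0.069 with library size alone, -0.035 without a filter and -0.26 without both libraries of number 3. Leaving out single libraries gave -0.16 to 0.11 for Csrp1 in WT and -0.25 to 0.54 for Pdlim4 in Nox4 KO after TGF-β2. Between genotypes in controls it gave -0.14 to 0.10 for Fhl2, -0.086 to 0.10 for Pdlim2, -0.12 to 0.15 for Pdlim5, -0.037 to 0.14 for Pdlim7, -0.069 to 0.17 for Csrp1, -0.14 to 0.39 for Csrp2 and -0.49 to 0.057 for Pdlim4. Between genotypes after TGF-β2 it gave -0.39 to 0.073 for Pdlim1, -0.20 to 0.036 for Fhl1, -0.23 to 0.012 for Csrp1 and -0.74 to 0.057 for Pdlim4, and for the interaction -0.23 to 0.23 for Pdlim1, -0.021 to 0.22 for Pdlim5 and -0.48 to 0.31 for Pdlim4.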
